A study of Homo sapiens with 2 samples.

Results

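The genes described here are the replication-dependent histone genes, which encode the proteins that package newly copied DNA. They were taken as every row of the gene expression table whose name starts with HIST1H, HIST2H or HIST3H, which gave 70 of 36601 genes. The 70 members comprise 6 linker histone H1 genes, 17 H2A genes, 18 H2B genes, 15 H3 genes and 14 H4 genes. By name prefix, 55 are HIST1H genes, which lie on chromosome 6 between 25726063 and 27893891, and 12 are HIST2H and 3 are HIST3H genes, which lie on chromosome 1 (RefSeq, GRCh38.p14). The cells came from HES2, an established line of human embryonic stem cells, after differentiation into sinoatrial node-like pacemaker cells (SANLPC), which are modelled on the cells that set the heartbeat. All cells came from 1 dissociated culture that carried the same barcoded CD34 antibody and was sorted with DAPI for single live cells, with no other treatment named in the labels. Polyadenylated RNA was counted from the 3' end as unique molecular identifiers (UMIs), 1 per captured molecule, in a 10x Genomics library, and the antibody tags were counted in a library of the same cells. With 1 culture there is no replicate, so no test was made: the intervals given (95%, exact) hold the error of counting and no other error, and a gene is called higher or lower where its ratio passes 1.5-fold.

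A nucleosome is a spool of DNA around H2A, H2B, H3 and H4, and H1 binds the DNA where it enters and leaves the spool. A dividing cell must make a full set of these proteins during S phase, when DNA is copied, and cells that stop dividing shut this supply down. Most messages of these genes are unusual in ending in a stem-loop rather than a poly(A) tail; the stem-loop is bound by the protein SLBP, and the messages are destroyed when DNA synthesis ends. Some of the genes can also give polyadenylated messages, which can outlast S phase in cells that have stopped dividing. A library primed on poly(A) captures polyadenylated molecules, so the levels below are those of captured RNA, and the share of histone RNA that was not captured was not measured.

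Cells with at least 1000 genes, at most 25% mitochondrial UMIs and at most 35000 RNA UMIs were kept, 11211 of 14829 barcodes, with a median of 16607 RNA UMIs. Cardiomyocytes were the 5516 cells with TNNT2, the cardiac thin filament protein troponin T, at 2000 counts per 1000000 RNA UMIs (CPM) or more, and other cells the 5246 cells below 1000 CPM. A cell was cycling with at least 8 UMIs summed over MKI67, TOP2A, RRM2 and CENPF, genes of proliferating cells, and non-cycling with 0 or 1. This gave 863 cycling and 3943 non-cycling cardiomyocytes, and 1208 cycling and 3185 non-cycling other cells. Their median RNA UMIs were 21056, 15510, 21452.5 and 16144, in that order. Cells within 10% of the TNNT2 limits numbered 172 at 2000 CPM and 165 at 1000 CPM, while 143 cells held 7 or 8 cycle UMIs and 2873 held 1 or 2. The cardiomyocytes matched their label: in non-cycling cells the 6 cardiomyocyte markers besides TNNT2 (TNNI1, MYH6, MYL7, ACTN2, RYR2, NPPA) and 5 of 5 pacemaker markers (SHOX2, TBX3, TBX18, ISL1, HCN4) were higher than in other cells, summing to 1002 CPM against 142 CPM for the pacemaker list. The other cells were mixed, with epithelial markers such as KRT18 summing to 8623 CPM and mesenchymal markers such as COL3A1 summing to 6420 CPM.

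To show the regulatory DNA of the members the results turn on, 150 bases upstream of the transcription start are printed for 7 genes, 5' to 3' on the gene's own strand, from RefSeq on GRCh38.p14. Capitals mark matches to the TATA box core TATAAA, the octamer ATTTGCAT, the H1 box AAACACAA and the element CCAAT. Each was searched on both strands, and the last reads ATTGG on the opposite strand. HIST1H1B (chr6:27867589-27867738, minus strand) and HIST1H3B (chr6:26032100-26032249, minus strand) had the largest ratios of cycling to non-cycling cells in cardiomyocytes among the H1 and the H3 genes with a mean of at least 5 CPM over both groups.
HIST1H1B: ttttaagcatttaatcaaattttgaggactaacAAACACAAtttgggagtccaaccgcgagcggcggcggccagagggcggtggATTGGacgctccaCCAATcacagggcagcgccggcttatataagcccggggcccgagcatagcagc
HIST1H3B: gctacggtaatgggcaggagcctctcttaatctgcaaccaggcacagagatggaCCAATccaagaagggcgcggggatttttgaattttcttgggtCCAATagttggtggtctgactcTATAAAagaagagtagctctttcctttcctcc
HIST1H1A (chr6:26017788-26017937, minus strand) was higher in cardiomyocytes than in other cells, and HIST1H1C (chr6:26056471-26056620, minus strand) led the H1 genes in non-cycling cells.
HIST1H1A: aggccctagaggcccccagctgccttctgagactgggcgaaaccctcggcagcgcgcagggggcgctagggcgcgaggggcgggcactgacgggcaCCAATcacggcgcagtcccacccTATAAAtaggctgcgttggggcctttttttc
HIST1H1C: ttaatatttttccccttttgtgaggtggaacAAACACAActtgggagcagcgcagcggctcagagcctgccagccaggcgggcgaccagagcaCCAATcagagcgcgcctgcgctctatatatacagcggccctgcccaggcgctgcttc
HIST2H2AC (chr1:149886768-149886917, plus strand) and HIST2H2BE (chr1:149886683-149886832, minus strand) start 236 bp apart and face away from each other, so their windows share DNA on opposite strands; HIST3H2A (chr1:228457874-228458023, minus strand) and HIST2H2BE were the members past the floor in both classes that were not higher in cycling cells of either. These 5 genes were chosen after their values were seen.
HIST2H2AC: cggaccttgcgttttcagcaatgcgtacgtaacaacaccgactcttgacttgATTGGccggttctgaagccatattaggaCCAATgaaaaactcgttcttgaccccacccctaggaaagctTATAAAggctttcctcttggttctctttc
HIST2H2BE: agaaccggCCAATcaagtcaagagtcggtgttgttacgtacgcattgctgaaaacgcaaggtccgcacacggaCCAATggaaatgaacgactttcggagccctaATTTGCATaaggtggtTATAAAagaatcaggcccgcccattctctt
HIST3H2A: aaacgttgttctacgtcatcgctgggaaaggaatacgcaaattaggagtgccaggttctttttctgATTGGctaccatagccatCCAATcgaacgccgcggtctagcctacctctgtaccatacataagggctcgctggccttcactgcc

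In windows from 250 bases before to 50 after the start, 61 of the 70 members had a RefSeq promoter. TATAAA, the core of the TATA box, occurred in 65.6% of the 61 against 11.5% of all 35116 promoters, and CCAAT in 85.2% against 34.6%. CCAAT was found in all 6 H1, 16 H2A, 16 H2B and 11 H3 promoters with an entry and in 3 of 12 H4 promoters. ATTTGCAT, the octamer that POU-domain factors recognise, occurred in 11 of 16 H2A and 13 of 16 H2B promoters and in no H1, H3 or H4 promoter, against 1.77% of all promoters. AAACACAA occurred in 4 of 6 H1 promoters and in no core histone promoter, against 1.55% of all. TTTCGCGC, a form of the E2F site, occurred in 18.03% of member promoters against 0.515% of all. Many H2A and H2B genes lie in head-to-head pairs with starts 194 to 248 bp apart. The windows of such a pair overlap, so 1 site can be counted for both genes. The H2A and H2B counts, and the shares over all members including that of TTTCGCGC, are therefore not counts of separate stretches of DNA. HIST2H2BE carried the octamer in the printed stretch and HIST1H1B and HIST1H1C carried AAACACAA. HIST2H2AC, the head-to-head partner of HIST2H2BE, also carried the octamer in its window from 250 bases before the start, outside its printed stretch. The octamer was therefore present in the windows of both genes of this pair. A match describes the letters only.

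The histone genes together were far higher in cycling cells of both classes. In cardiomyocytes they summed to 3296 CPM (3269.9 to 3323) in cycling and 430.4 CPM (425 to 436) in non-cycling cells, a ratio of 7.66 (7.55 to 7.77). In other cells they summed to 3528 CPM (3505 to 3551) and 508 CPM (501 to 514), a ratio of 6.95 (6.85 to 7.05). A cycling cardiomyocyte held 68.8 histone UMIs on average and a non-cycling one 6.73, while other cells held 74.5 and 8.04. Of the 27 members with a mean of at least 5 CPM over both cardiomyocyte groups, 24 were higher in cycling cells, beside 11.1% of all 10969 genes past that floor. Of the 31 such members in other cells, 28 were higher, beside 8.07% of 11055 genes. The other 3 members past the floor in each class were 1 lower and 2 within 1.5-fold, beside 3.25% and 85.7% of genes in cardiomyocytes and 4.98% and 86.9% in other cells. The median ratio of the members past the floor was 6.51 in cardiomyocytes and 6.04 in other cells, where the median over all genes was 1.02 and 0.982. Members under the floor, 43 and 39 in number, summed to ratios of 8.06 and 8.80. The floor was the mean of the 2 groups compared. Members near 0 CPM in non-cycling cells therefore passed it only through their cycling level and could only be called higher. Over non-cycling cardiomyocytes and non-cycling other cells, 13 members had a mean of at least 5 CPM. The counts and medians past the floor, here and by family below, carry this limit. In each later comparison, members near 0 CPM in 1 of the 2 groups could likewise only be called higher in the other group.

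Other measurements moved with cycling in cardiomyocytes. TNNT2 was 4559.7 CPM in cycling and 7409.5 CPM in non-cycling cardiomyocytes, the epithelial list 1524 and 1170.0 CPM with 4 of 7 genes higher, and the mesenchymal list 922 and 662 CPM with 2 of 6 higher. Endothelial, blood and pluripotency markers were near 0 in cycling cardiomyocytes, at 2.22, 0.778 and 0.4999 CPM summed. Scrublet called 22.2% of cycling and 7.35% of non-cycling cardiomyocytes doublets, and 6.29% and 1.73% of other cells. Without the called doublets the ratios were 9.01 in cardiomyocytes and 7.02 in other cells, and 26 and 28 members were higher in cycling cells. A list of 12 mitosis genes summed to 72.2 CPM in non-cycling and 2424 CPM in cycling cardiomyocytes, and TNNT2 stood at 329 CPM in non-cycling other cells. How much of the histone level in non-cycling cells came from RNA released by other cells was not tested.

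**Figure D1:**
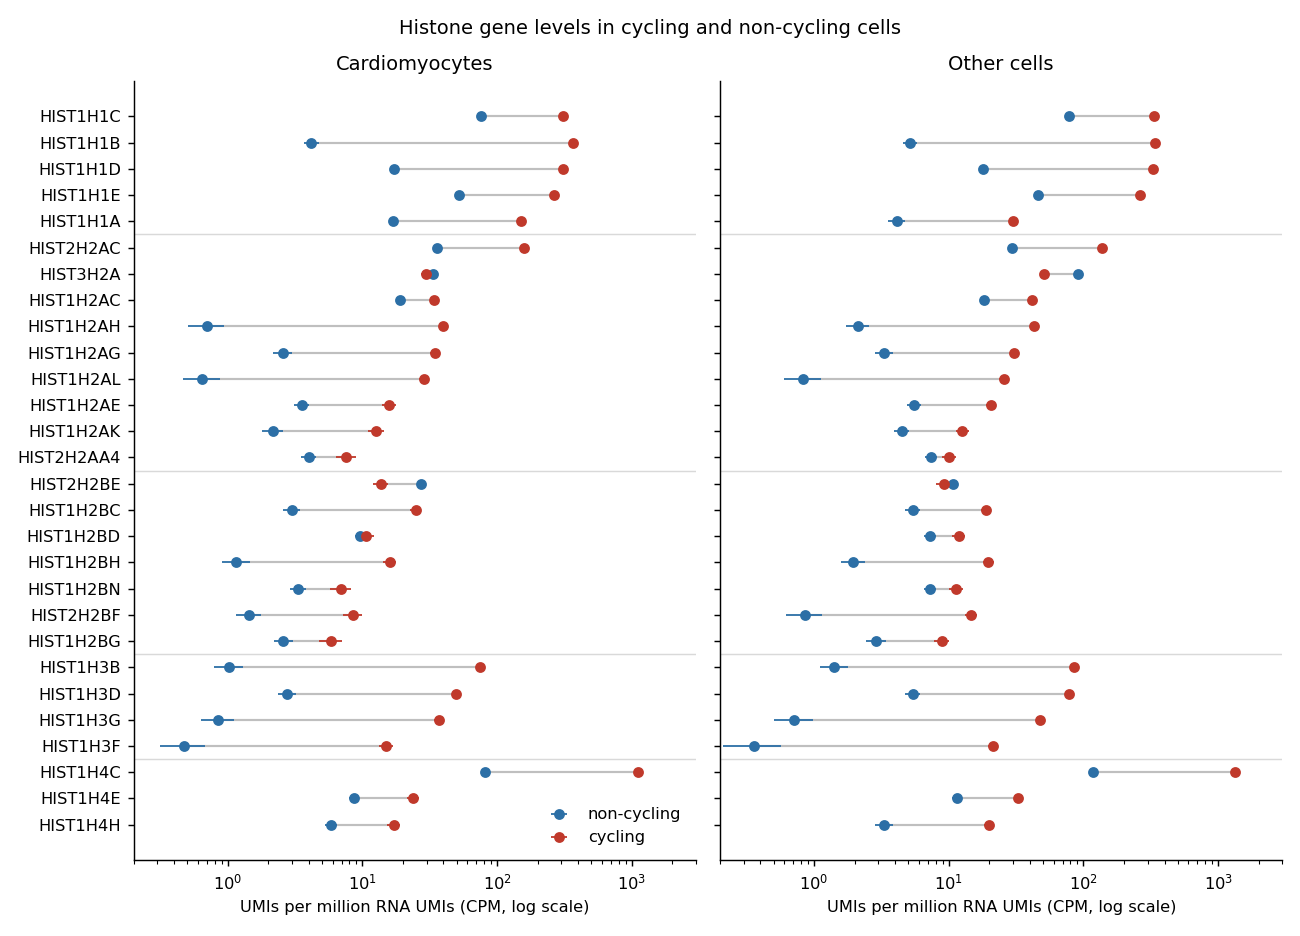
Levels in CPM (log axis) of the 28 histone genes with a mean of at least 5 CPM over the 4 groups, by family, in cycling and non-cycling cardiomyocytes and other cells of 1 culture; lines are exact 95% Poisson intervals. HIST1H4C stands highest in cycling cells, at 1108 and 1339.7 CPM, and HIST2H2BE and HIST3H2A are the genes whose non-cycling level reaches or passes the cycling level in both classes.

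The 28 members with a mean of at least 5 CPM over the 4 groups are described by name; they held 95.9% to 96.9% of histone UMIs in each group. The member just inside this limit was HIST1H2BG with 5.04 CPM and the one just outside HIST1H2BF with 4.98 CPM. The 42 members not named summed to 124 CPM in cycling and 13.5 CPM in non-cycling cardiomyocytes, and to 146 and 17.4 CPM in other cells. No UMI was counted in the filtered cells for 5 members: HIST3H3, HIST1H2AA, HIST1H2BA, HIST1H4G and HIST1H4K. Among the named members, 22 were higher in cycling cells of both classes.

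The linker histones H1, which close the nucleosome and help fold chromatin, were 5 of 5 higher in cycling cells of both classes. They summed to 1401 CPM in cycling and 166 CPM in non-cycling cardiomyocytes, a ratio of 8.41 (8.22 to 8.61), and to 1290.3 and 151 CPM in other cells, a ratio of 8.56 (8.35 to 8.78). The 5 genes differed widely in how far they dropped outside the cycle. HIST1H1B, which encodes linker histone H1.5 (ENSG00000184357, chromosome 6, 27866792 to 27867588), was 369 CPM in cycling and 4.19 CPM in non-cycling cardiomyocytes, and 337 and 5.15 CPM in other cells. Its ratios of 88.1 (77.8 to 100) and 65.4 (57.8 to 74.3) were the highest of the named members in cardiomyocytes and the second highest in other cells. HIST1H1C, which encodes H1.2 (ENSG00000187837, chromosome 6, 26055740 to 26056470), was 308 and 75.8 CPM in cardiomyocytes and 332 and 77.9 CPM in other cells. Its ratios were 4.06 (3.90 to 4.22) and 4.27 (4.11 to 4.43), so that a larger part of its level remained outside the cycle. HIST1H1E, which encodes H1.4, was similar, with 266, 52.6, 263 and 45.7 CPM in cycling cardiomyocytes, non-cycling cardiomyocytes, cycling other cells and non-cycling other cells. HIST1H1D, which encodes H1.3, lay between these patterns with 307, 17.0, 328 and 17.9 CPM in the same order, ratios of 18.03 and 18.3.

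The make-up of the H1 pool differed between cycling and non-cycling cells. HIST1H1B was 26.3% of H1 UMIs in cycling and 2.51% in non-cycling cardiomyocytes, and 26.1% and 3.42% in other cells. HIST1H1C was 22.0% in cycling and 45.6% in non-cycling cardiomyocytes and 25.7% and 51.7% in other cells. HIST1H1E was 19.0% and 31.6% in cardiomyocytes and 20.4% and 30.3% in other cells. In non-cycling cells these 2 genes gave most of the H1 RNA captured.

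**Figure D2:**
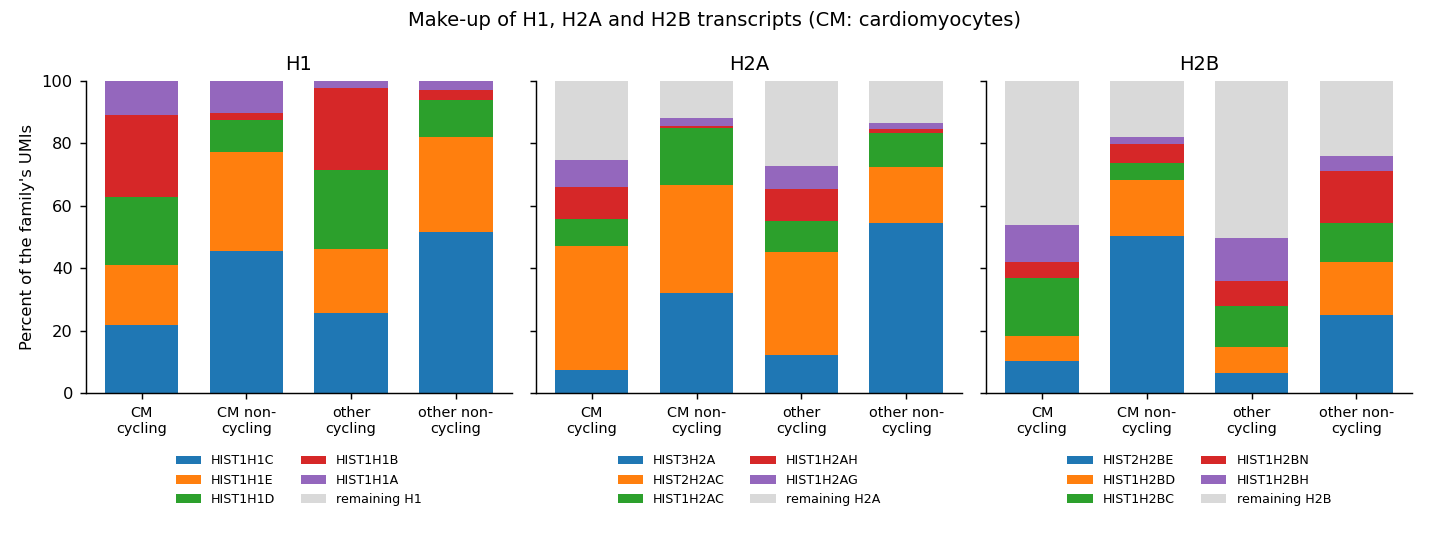
Share of each family's UMIs (percent) given by its genes in the 4 groups of cells. In H1, HIST1H1B is 26.3% and 26.1% of the pool in cycling cells and 2.51% and 3.42% in non-cycling cells while HIST1H1C reaches 45.6% and 51.7%; HIST3H2A takes 54.7% of H2A in non-cycling other cells and HIST2H2BE 50.3% of H2B in non-cycling cardiomyocytes.

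HIST1H1A, which encodes H1.1 (ENSG00000124610, chromosome 6, 26017032 to 26017787), was higher in cardiomyocytes than in other cells. Members called higher in cardiomyocytes were 2 of 13 among non-cycling and 2 of 38 among cycling cells, beside 19.2% and 18% of all genes. HIST1H1A was among them in both. Its level was 151 CPM in cycling and 16.8 CPM in non-cycling cardiomyocytes, and 29.9 and 4.10 CPM in other cells. Cardiomyocytes exceeded other cells 5.05-fold (4.66 to 5.48) among cycling cells and 4.10-fold (3.53 to 4.79) among non-cycling cells. Both differences were as large without called doublets, 6.29-fold and 4.30-fold. The other cells are a mixed pool, and among non-cycling ones HIST1H1A was higher in a mesenchymal than in an epithelial range, as given below. The ratio to the pool is therefore not the ratio to each kind of other cell. Within each class HIST1H1A followed the cycle, with cycling to non-cycling ratios of 8.97 and 7.29. It gave 10.8% and 10.1% of H1 UMIs in cycling and non-cycling cardiomyocytes and 2.32% and 2.72% in other cells. After each cell was thinned to 5000 UMIs, 27.6% of cycling and 8.06% of non-cycling cardiomyocytes held a HIST1H1A UMI, against 9.37% and 2.09% of other cells; before thinning the shares were 46.1%, 20.1%, 22.4% and 5.59%.

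The H2A genes encode the histone that sits at the outer face of the core with H2B. Past the floor, 8 of 9 were higher in cycling cardiomyocytes and 8 of 10 in cycling other cells. The family ratio was 3.84 (3.71 to 3.97) in cardiomyocytes, from 397 to 103 CPM, and 2.50 (2.43 to 2.58) in other cells, from 417 to 166 CPM. HIST2H2AC was the highest H2A gene in both groups of cycling cells, with 158 CPM in cycling and 35.7 CPM in non-cycling cardiomyocytes and 136 and 29.6 CPM in other cells. Its ratios were 4.42 and 4.61. HIST1H2AH was 39.8 CPM in cycling against 0.698 CPM in non-cycling cardiomyocytes, a ratio of 57.0, and stood at 43.2 and 2.12 CPM in other cells, a ratio of 20.4. HIST1H2AL showed the same pattern at 28.9, 0.649, 25.6 and 0.833 CPM in cycling cardiomyocytes, non-cycling cardiomyocytes, cycling other cells and non-cycling other cells. HIST1H2AG had ratios of 13.5 and 9.26, HIST1H2AE of 4.44 and 3.71, and HIST1H2AK of 5.87 and 2.83. HIST1H2AC kept more of its level outside the cycle, with 34.2 and 19.0 CPM in cardiomyocytes and 41.4 and 18.2 CPM in other cells, ratios of 1.80 and 2.27. HIST2H2AA4 was 7.55 and 4.01 CPM in cardiomyocytes, a ratio of 1.89, and 10.0 and 7.39 CPM in other cells, a ratio of 1.36. HIST2H2AA4 is a near-identical copy of HIST2H2AA3, which held 0 UMIs in the 4 groups and 2 in all filtered cells, so its level is uncertain. It also overlaps HIST2H4B by 534 bp, on the opposite strand, and whether this changed its count was not tested. As UMIs per cell its ratio in other cells was 1.81, past 1.5-fold.

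HIST3H2A (ENSG00000181218, chromosome 1, 228457364 to 228457873) went the other way. It was 29.8 CPM (27.3 to 32.4) in cycling and 33.2 CPM (31.8 to 34.7) in non-cycling cardiomyocytes, a ratio of 0.897 (0.814 to 0.987) that is within 1.5-fold. In other cells it was 51.3 CPM (48.5 to 54.1) in cycling and 91.0 CPM (88.4 to 93.7) in non-cycling cells, a ratio of 0.563 (0.529 to 0.599), lower in cycling cells. As UMIs per cell, that ratio was 0.751 and no longer past 1.5-fold. Non-cycling other cells were the highest group and cardiomyocytes the lowest, with a cardiomyocyte to other ratio of 0.365 (0.346 to 0.384) in non-cycling and 0.581 in cycling cells. HIST3H2A was 7.50% of H2A UMIs in cycling and 32.1% in non-cycling cardiomyocytes, and 54.7% in non-cycling other cells. After thinning to 5000 UMIs, 34.1% of non-cycling other cells held a HIST3H2A UMI, against 20.3% of cycling other cells, 14.5% of cycling and 13.8% of non-cycling cardiomyocytes; the unthinned shares were 62.6%, 54.4%, 38.9% and 36.7%.

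The H2B genes had the smallest family ratio in cardiomyocytes, 2.48 (2.36 to 2.62), from 134 to 53.9 CPM, against 3.33 (3.16 to 3.52), from 143 to 42.9 CPM, in other cells. Past the floor, 4 of 6 were higher, 1 lower and 1 within 1.5-fold in cardiomyocytes, and 7 of 8 were higher and 1 within 1.5-fold in other cells. HIST2H2BE (ENSG00000184678, chromosome 1, 149884459 to 149886682) was the H2B gene that was lower in cycling cardiomyocytes. It was 13.7 CPM (12.1 to 15.5) in cycling and 27.1 CPM (25.8 to 28.4) in non-cycling cardiomyocytes, a ratio of 0.506 (0.441 to 0.579). In other cells it was 9.21 CPM (8.07 to 10.5) and 10.7 CPM (9.84 to 11.7), a ratio of 0.859 (0.734 to 1.003). As UMIs per cell the cardiomyocyte ratio was 0.676 and no longer past 1.5-fold, and without called doublets it was 0.444. HIST2H2BE held 50.3% of H2B UMIs in non-cycling and 10.3% in cycling cardiomyocytes, and was 2.53-fold (2.29 to 2.79) higher in non-cycling cardiomyocytes than in non-cycling other cells. HIST1H2BD (ENSG00000158373) was 10.6 and 9.60 CPM in cardiomyocytes, a ratio of 1.10 (0.928 to 1.30). In other cells it was 11.9 and 7.26 CPM, a ratio of 1.64 (1.40 to 1.91) that was 1.46 when non-cycling cells were also required to be low in S phase genes.

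The remaining H2B genes were higher in cycling cells wherever they passed the floor. HIST1H2BC was 24.997 and 2.99 CPM in cardiomyocytes and 18.9 and 5.39 CPM in other cells, ratios of 8.37 and 3.51. HIST1H2BH had the largest H2B ratio of a named member in cardiomyocytes, 13.8, and 10.1 in other cells. HIST2H2BF reached 17.3 in other cells, from 14.7 to 0.852 CPM, and HIST1H2BG 3.06, and both were under the floor in cardiomyocytes with 8.50 and 1.44 CPM and with 5.83 and 2.60 CPM. HIST1H2BN had the smallest ratios of these genes, 2.08 and 1.56.

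The H3 genes, whose protein carries many of the tail modifications of chromatin, had the largest family ratio. They summed to 200.1 CPM in cycling and 8.87 CPM in non-cycling cardiomyocytes, a ratio of 22.6 (20.6 to 24.7), and to 263 and 12.2 CPM in other cells, a ratio of 21.6 (19.9 to 23.5). All that passed the floor were higher in cycling cells, 4 of 4 and 5 of 5. HIST1H3B (ENSG00000286522, chromosome 6, 26031589 to 26032099) was 74.3 and 1.02 CPM in cardiomyocytes and 85.0 and 1.41 CPM in other cells. Its ratios were 72.7 (56.5 to 95.2) and 60.4 (47.7 to 77.6), and the first was 45.7 as a mean of each cell's own CPM. HIST1H3G had ratios of 43.7 and 66.7 and HIST1H3F of 32.0 and 59.3, from non-cycling levels under 1 CPM. HIST1H3D kept more, with 49.5 and 2.74 CPM in cardiomyocytes and 78.7 and 5.39 CPM in other cells, ratios of 18.1 and 14.6; it overlaps HIST1H2AD by 510 bp, so reads of these genes could be confused.

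The H4 pool was almost a single gene. HIST1H4C (ENSG00000197061, chromosome 6, 26103933 to 26104337) held 83.0% to 95.1% of H4 UMIs in the 4 groups and was the most captured histone gene in every one of them. It was 1108 CPM in cycling and 81.1 CPM in non-cycling cardiomyocytes, a ratio of 13.7 (13.2 to 14.1), and 1339.7 and 118 CPM in other cells, a ratio of 11.3 (11.03 to 11.7). After thinning, 67.4% of cycling and 32.0% of non-cycling cardiomyocytes held a HIST1H4C UMI, against 77.3% and 42.7% of other cells. HIST1H4E had ratios of 2.76 and 2.87 and HIST1H4H of 2.91 and 6.04, and all 3 named H4 genes were higher in cycling cells of both classes.

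The balance of families in captured RNA also differed. H1, H4 and H3 together took the larger part of histone UMIs in all 4 groups, and a larger one in cycling than in non-cycling cells. In cycling cells they held 42.5%, 35.3% and 6.07% in cardiomyocytes and 36.6%, 40.1% and 7.46% in other cells. In non-cycling cells H1 and H4 held 38.7% and 22.7% in cardiomyocytes and 29.7% and 26.7% in other cells. In non-cycling cardiomyocytes H2A held 24.0% and H2B 12.5%, against 12.04% and 4.06% in cycling ones. In non-cycling other cells H2A held 32.8% and H2B 8.45%, against 11.8% and 4.05% in cycling ones. H3 was the smallest family in non-cycling cells, at 2.06% and 2.40%. These shares describe captured RNA and not protein.

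Cells of the same cycle class differed strongly in their histone load. After thinning to 5000 UMIs, the median cycling cardiomyocyte held 7 histone UMIs, the 75th percentile 27 and the 95th 53, with a maximum of 99. Cycling other cells had a median of 9, a 75th percentile of 29 and a 95th percentile of 51. At least 10 histone UMIs were held by 43.2% (39.9% to 46.6%, exact binomial) of cycling cardiomyocytes and 48.6% (45.7% to 51.5%) of cycling other cells. Among non-cycling cells the medians were 2, and 0.0806% (0.0166% to 0.235%) of cardiomyocytes and 0.530% (0.303% to 0.859%) of other cells reached 10. Cycling cells thus held a group of high-histone cells that non-cycling cells nearly lacked, and the low parts of the distributions overlapped. Cells under 5000 UMIs were left out, 14 and 221 cardiomyocytes and 23 and 166 other cells.

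**Figure D3:**
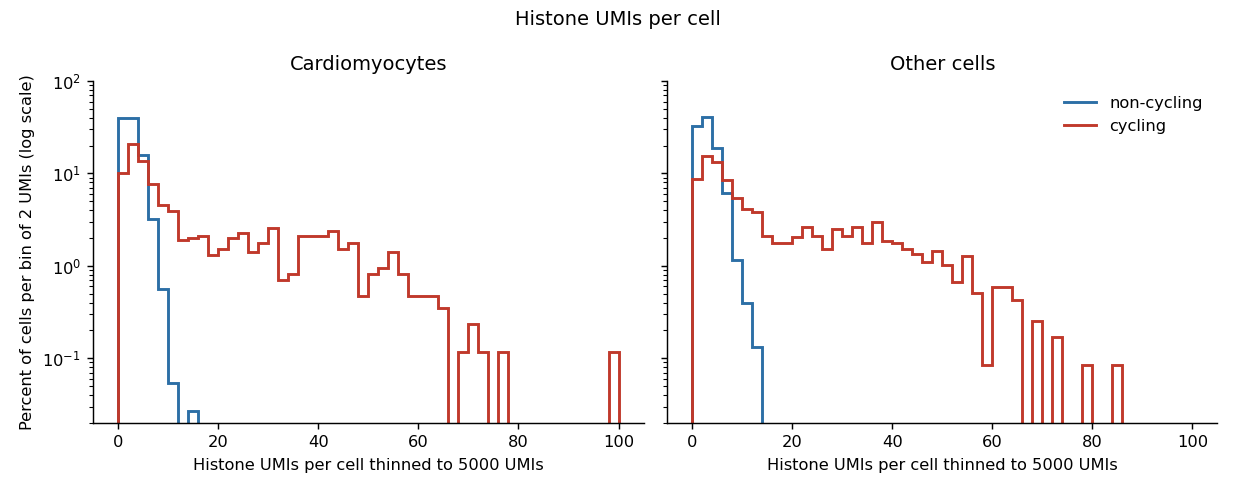
Share of cells (percent) by the number of histone UMIs left after each cell was thinned to 5000 UMIs, for the 4 groups. Non-cycling cells pile up at a median of 2, while cycling cells spread to a maximum of 99, with 43.2% of cardiomyocytes and 48.6% of other cells at 10 or more.

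Within the cycle, histone RNA was highest in the middle range of S phase against mitosis RNA. Cycling cells with at least 10 UMIs of 14 S phase genes and 12 mitosis genes were ordered by the S phase share of those UMIs, and the upper 25%, the middle and the lower 25% were compared. The histone genes summed to 2231 CPM in the S-rich range (208 cells), 4993 CPM in the middle (416 cells) and 972 CPM in the mitosis-rich range (208 cells) of cardiomyocytes. In other cells they summed to 3169, 4943 and 1293 CPM in 285, 568 and 286 cells. The middle range and the comparison of mitosis-rich with non-cycling cells were added after seeing the data. From S-rich to mitosis-rich cardiomyocytes 13 of 28 members were higher in the S-rich range and 7 lower, beside 14.7% and 9.44% of all genes. In other cells 23 of 33 were higher and 3 lower, beside 14.8% and 10.7%. From the middle to the mitosis-rich range 30 of 37 members were higher and 3 lower in cardiomyocytes, beside 7.73% and 3.86%, and 33 of 38 higher and 0 lower in other cells, beside 9.53% and 4.34%. Here too the floor was the mean of the 2 groups, so members near 0 CPM in the mitosis-rich range could only be called higher. Members under the floor summed to ratios of 4.88 and 4.14.

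Members followed different patterns along these ranges. HIST1H1B went from 291 CPM in S-rich to 564 in middle and 49.7 CPM in mitosis-rich cardiomyocytes, and from 337 to 489 and 57.8 CPM in other cells. HIST1H4C stood at 674, 1779.9 and 201 CPM in cardiomyocytes and at 1025, 2009 and 445 CPM in other cells, highest in the middle. The largest ratios of S-rich to mitosis-rich cells in cardiomyocytes were HIST1H2AH with 9.17, HIST1H1A with 6.54 and HIST1H1B with 5.86, and in other cells HIST1H1B with 5.84 and HIST1H2AL with 5.59. Lower in S-rich cells of both classes were HIST1H2BD, with ratios of 0.201 and 0.313, HIST1H2BG, with 0.186 and 0.417, and HIST2H2BE, with 0.330 and 0.458. In cardiomyocytes the other 4 lower members were HIST1H2BJ with 0.104, HIST1H2BN with 0.334, HIST3H2A with 0.549 and HIST1H2AC with 0.553. HIST2H2BE was 6.79, 13.5 and 20.6 CPM along the ranges in cardiomyocytes and 5.11, 9.90 and 11.2 CPM in other cells, against 27.1 and 10.7 CPM in non-cycling cells. HIST3H2A was lowest in the S-rich range of both classes, with 17.3, 34.0 and 31.5 CPM in cardiomyocytes and 36.8, 52.9 and 47.7 CPM in other cells. In cardiomyocytes H2B as a family was lower in S-rich cells, 0.624 (0.540 to 0.720), where the other families were 1.85 to 3.20; in other cells H2B was 1.18 and the other families 2.13 to 3.43.

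Mitosis-rich cells still held more of many histone genes than non-cycling cells. In cardiomyocytes 14 of 21 members were higher in mitosis-rich cells and 0 lower, beside 11.4% and 9.24% of all genes; in other cells 19 of 25 were higher and 2 lower, beside 8.96% and 11.7%. The floor was again the mean of the 2 groups compared. Members near 0 CPM in non-cycling cells, HIST1H3G and HIST1H3B among them, passed it only through their mitosis-rich level and could only be called higher. Summed over all 70 members, without a floor, the ratio was 2.26 in cardiomyocytes and 2.55 in other cells. HIST1H3G, HIST1H3B and HIST1H1B were 19.4, 18.1 and 11.9-fold higher in mitosis-rich than in non-cycling cardiomyocytes. HIST2H2AC, HIST1H1A, HIST2H2BE and HIST3H2A were within 1.5-fold of the non-cycling level there, with ratios of 0.810, 0.959, 0.759 and 0.949. HIST3H2A and HIST2H2AA4 were the lower members in other cells, at 0.525 and 0.634.

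**Figure D4:**
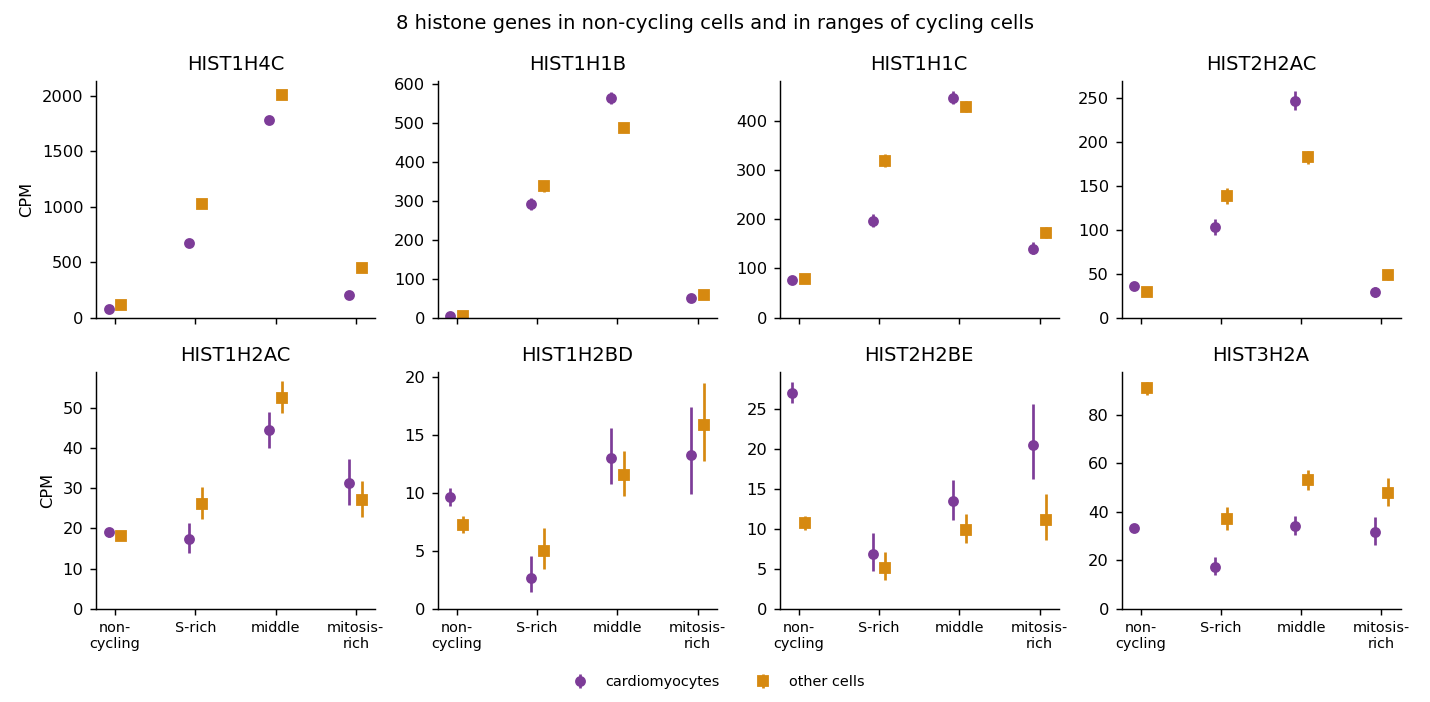
Levels in CPM of 8 histone genes in non-cycling cells and in the S-rich, middle and mitosis-rich ranges of cycling cells, for cardiomyocytes and other cells; lines are exact 95% Poisson intervals and each panel has its own axis. HIST1H4C and HIST1H1B peak in the middle range, at 1779.9 and 564 CPM in cardiomyocytes, whereas HIST2H2BE and HIST1H2BD are lowest in the S-rich range of both classes.

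Cells between the cycling limits, with 2 to 7 cycle UMIs, held S phase RNA but little histone RNA. The 710 such cardiomyocytes had 826 CPM of the S phase list, against 234 CPM in non-cycling and 1499 CPM in cycling cardiomyocytes, yet 492 CPM of histone genes. The 853 such other cells had 633 CPM of the S phase list and 595 CPM of histone genes. All 14 S phase genes were higher than in non-cycling cells in both classes, while 2 of 13 histone genes were higher and 0 lower in cardiomyocytes, beside 2.89% and 0.111% of all genes. In other cells 3 of 16 were higher and 0 lower, beside 2.06% and 0.0994%. The higher members were HIST1H1B with ratios of 2.64 and 2.67 and HIST1H1D with 1.77 and 1.63, and in other cells HIST1H3D with 1.61.

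Total histone RNA of cardiomyocytes was within 1.5-fold of that of other cells in both cycle classes. Among non-cycling cells the cardiomyocyte to other ratio was 0.848 (0.833 to 0.863). Of 13 members past the floor, 2 were higher in cardiomyocytes and 3 lower, beside 19.2% and 27.5% of all genes. The higher members were HIST1H1A and HIST2H2BE, and the lower members HIST3H2A, HIST2H2AA4 with 0.542 and HIST1H2BN with 0.463. By family, H1 had a ratio of 1.10, H2B 1.26, H3 0.729, H4 0.722 and H2A 0.621. Among cycling cells the total ratio was 0.934 (0.925 to 0.944), and it turned to 1.07 without called doublets. Of 38 members past the floor, 2 were higher in cycling cardiomyocytes and 8 lower, beside 18% and 22.4% of all genes. HIST1H1A and HIST1H2BJ were the higher members, and HIST1H2BJ, which is below the limit for named members, was 12.7 CPM in cycling cardiomyocytes and 3.29 CPM in cycling other cells, a ratio of 3.85 (2.98 to 5.002). The lower members included HIST3H2A, HIST1H3D with 0.629, HIST2H2BF with 0.577 and HIST1H2BN with 0.615.

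Among non-cycling cardiomyocytes, histone genes differed little with the CD34 antibody tag. The 988 cells with at least 261 tag UMIs, the upper 25% of the tag, held 467 CPM of histone genes, and the 990 cells with at most 44 held 407 CPM, a ratio of 1.15 (1.11 to 1.19). Of 12 members past the floor, 0 were higher and 0 lower, beside 1.97% and 3.96% of all genes, and no test was made since there is 1 culture. The largest ratios were those of HIST1H2AC, 1.44, and HIST1H1A, 1.35, with 19.9 against 14.7 CPM. Markers of working cardiomyocytes, NKX2-5, GJA5 and KCNA5, summed to 22.9 CPM in tag-high and 107 CPM in tag-low cells.

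Within non-cycling other cells, total histone RNA was within 1.5-fold between ranges of mesenchymal and epithelial cells, and members were called about as often as all genes. The 768 cells in the mesenchymal range (COL1A2 at 500 CPM or more) held 453 CPM of histone genes, and the 1148 cells in the epithelial range (EPCAM at 100 CPM or more, COL1A2 below 100 CPM) held 539.7 CPM, a ratio of 0.840. Of 18 members past the floor, 3 were higher in the mesenchymal range and 2 lower, beside 14.4% and 11.6% of all genes. HIST1H1A was 8.03 CPM in the mesenchymal and 2.54 CPM in the epithelial range, a ratio of 3.16, and HIST1H3D and HIST1H1B had ratios of 1.80 and 1.66. HIST3H2A was 58.9 and 103 CPM, a ratio of 0.573, and HIST1H1C had a ratio of 0.620. The S phase list was 168 CPM in the mesenchymal and 259 CPM in the epithelial range, and its part in these differences was not tested.

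Many histone genes, mostly of H2A with H2B, lie head to head, with starts a short distance apart on opposite strands. Among the 61 members whose strand was given by the promoter table, 12 such pairs had starts within 1000 bp, and 11 could be measured on both sides; pairs that involve the other 9 members were not searched. HIST2H2BE and HIST2H2AC, 236 bp apart, differed most in cardiomyocytes relative to the cycle, with ratios of 0.506 and 4.42, and of 0.859 and 4.61 in other cells. HIST3H2A and HIST3H2BB, 230 bp apart, had ratios of 0.897 and 6.54 in cardiomyocytes and of 0.563 and 6.64 in other cells, although HIST3H2BB was under the floor at 1.17, 0.178, 1.84 and 0.278 CPM in the 4 groups in the order of cycling and non-cycling cardiomyocytes and cycling and non-cycling other cells. HIST1H2BC and HIST1H2AC, 246 bp apart, had 8.37 and 1.80 in cardiomyocytes and 3.51 and 2.27 in other cells. The pair HIST1H2BG and HIST1H2AE, 233 bp apart, was closer, with 3.06 and 3.71 in other cells. These are descriptions of single genes, and the motif matches printed above were not related to them by any test.

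**Figure D5:**
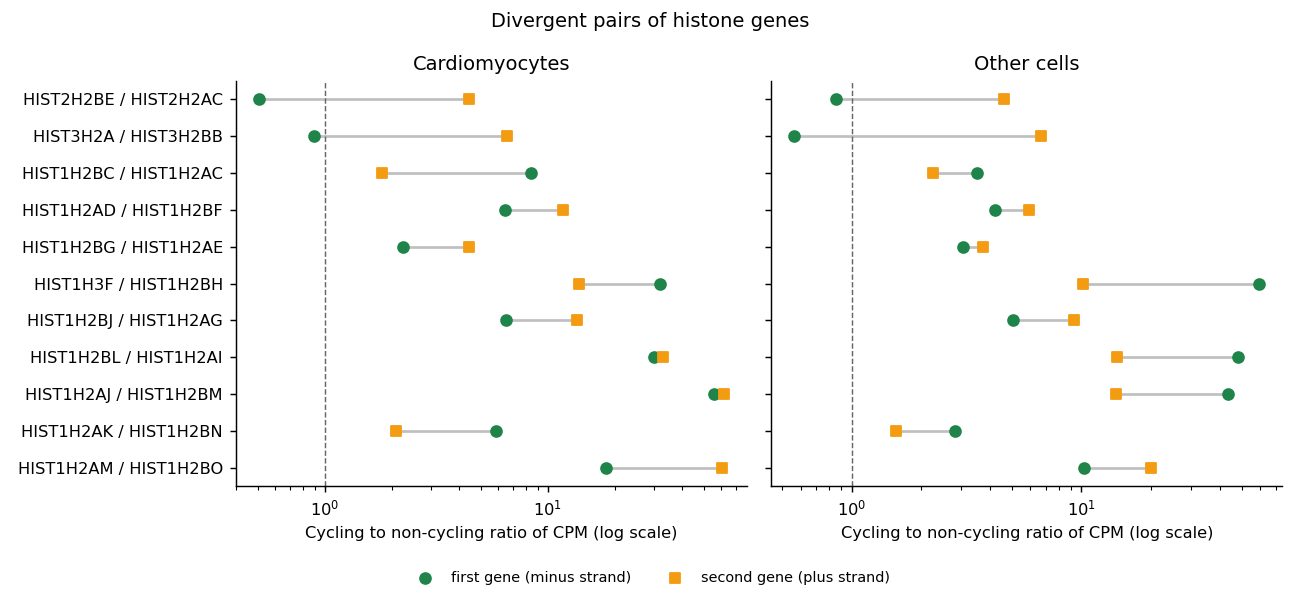
Ratio of cycling to non-cycling CPM (log axis) of the 2 genes in each of 11 head-to-head pairs of histone genes, in cardiomyocytes and in other cells; a grey line joins the genes of a pair and the dashed line marks equal levels. HIST2H2BE and HIST3H2A lie at or left of equality in both classes, while the partners HIST2H2AC and HIST3H2BB lie between 4.42 and 6.64.

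Genes around the histone messages moved in part with them. Of 12 genes for the processing of histone messages, 11 passed the floor and 4 were higher in cycling cells of each class, with 0 lower. Over all genes past the floor, 11.1% were higher and 3.25% lower in cycling cardiomyocytes, and 8.07% and 4.98% in cycling other cells. SLBP, which binds the stem-loop, was 58.2 and 27.3 CPM in cycling and non-cycling cardiomyocytes, a ratio of 2.13, and 116 and 75.7 CPM in other cells, a ratio of 1.53. SLBP was also 3.53 and 4.17 times as high in S-rich as in mitosis-rich cells of the 2 classes. Of 12 histone chaperones past the floor, 7 were higher in cycling cells of each class, led by ASF1B, which hands H3 and H4 to the replication fork, with ratios of 24.6 and 23.3, and by CHAF1A with 5.10 and 4.79. Of 11 histone variant genes past the floor, which are not among the 70 members, 6 were higher in cycling cardiomyocytes and 5 in cycling other cells. H2AFX and H2AFZ had ratios of 9.53 and 5.50 in cardiomyocytes and 7.71 and 4.85 in other cells, CENPA, the centromere form of H3, had 68.1 and 39.9, and H3F3A was flat at 1.05 and 1.02. None of the 11 variants was higher in S-rich than in mitosis-rich cells, and 6 were lower in cardiomyocytes and 7 in other cells. Over all genes in that comparison, 14.7% were higher and 9.44% lower in cardiomyocytes, and 14.8% and 10.7% in other cells. Of the genes of cell cycle exit, 1 of 8 was higher in cycling cardiomyocytes (RBL2, 1.52) and 1 of 9 lower in cycling other cells (CDKN1C, 0.429).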

How the data were processed

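The deposited matrix holds whole-number counts of UMIs per gene and for 1 antibody tag per barcode, made by the authors with Cell Ranger 6.1.2 on GRCh38, per the submitters' processing notes; the gene annotation is not given in the sources used here, and no normalization is recorded. For each group of cells, UMIs of a gene were added up and divided by all RNA UMIs of the group to give CPM, with exact 95% Poisson intervals; ratios have exact conditional binomial intervals. A gene entered a comparison with a mean of at least 5 CPM over the 2 groups and was called at 1.5-fold. Members with a mean of at least 5 CPM over the 4 groups were named. The members and the gene lists were chosen with earlier results of these data known. Doublets were called with Scrublet in scanpy 1.11.5 and kept, except where stated. Names were matched to RefSeq for all 70 members. The calculations were tested on simulated data. Python 3.11.15, numpy 2.4.6, scipy 1.17.1, pandas 2.3.3 and matplotlib 3.10.9 were used. Alternatives were other cycle, TNNT2, mitochondrial, fold and floor limits, thinned cells, other averages and removal of doublets.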

Additional observations from a re-analysis of the deposited data

How the results depend on the processing

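The total histone ratio cycling to non-cycling in cardiomyocytes, 7.66, was 9.01 without called doublets, 8.81 with limits of 16 and 0 cycle UMIs, 8.13 with cycle classes from thinned cells, 7.48 with TNNT2 limits of 4000 and 500 CPM, 7.27 as a mean of each cell's CPM, 10.2 as UMIs per cell and 7.34 at 15% mitochondrial UMIs. The total histone ratio cycling to non-cycling in other cells, 6.95, was 7.74 with limits of 16 and 0, 7.23 with thinned classes, 6.79 with non-cycling cells also low in S phase genes, 6.46 as a mean over cells, 9.27 per cell and 6.77 without mitochondrial and ribosomal genes in the total. For the total histone ratio cardiomyocytes to other cells, non-cycling, 0.848, the value at 15% mitochondrial UMIs was 0.867. For the total histone ratio cardiomyocytes to other cells, cycling, 0.934, the values were 1.07 without doublets, 0.959 with limits of 16 and 0, 0.950 with thinned classes, 0.907 with the TNNT2 limits, 0.957 as a mean over cells, 0.923 per cell and 0.916 at 15% mitochondrial UMIs. The members higher in cycling cells rose from 24 to 49 and from 28 to 52 at a floor of 1 CPM, where more genes are tested. Those within 1.5-fold numbered 2 in each class, and 5 in each class were within 2-fold. Except where the floor sets the number tested, the cause was not tested.

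Of 1008 values of named members under the alternatives, 1 moved over 1.5-fold, HIST1H3B in cardiomyocytes. Where the main ratio passed 1.5-fold, 0 reversed direction. Changes of direction within 1.5-fold were not counted as reversals. As UMIs per cell, the cycling to non-cycling ratios of HIST3H2A in cardiomyocytes and HIST2H2BE in other cells lay above equality but within 1.5-fold. Of 504 calls between cycling and non-cycling cells 4 changed, each given with its gene above. No paired analysis was possible because both libraries come from 1 culture. With 1 culture the spread between cultures is unknown. Ratios of members whose non-cycling level is near 1 CPM rest on few UMIs, and their intervals are wide. The library was primed on poly(A), and the share of histone RNA that it left out was not measured.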
